A study of Mus musculus with 4 samples.

Results

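The MAP kinase phosphatases are the dual-specificity phosphatases (DUSP) that remove phosphate from both the threonine and the tyrosine that switch a MAP kinase on. The set was defined by name as Dusp1, Dusp2, Dusp3, Dusp4, Dusp5, Dusp6, Dusp7, Dusp8, Dusp10 and Dusp16, and all 10 symbols had a row among the 24411 gene symbols counted. Of these, 8 had enough reads to be tested, in each group on its own, among 9992 genes tested in all, and Dusp8 and Dusp10 did not. RNA was sequenced from BV2 cells, a mouse microglial line immortalised with a retrovirus that carries oncogenes. All cells carry the label Pu.1 KO, a CRISPR-Cas9 knockout of the transcription factor PU.1, in both groups, and whether they are a single clone is not stated. The 2 untreated libraries were compared with 2 libraries of cells given lipopolysaccharide (LPS), the bacterial ligand of Toll-like receptor 4, at 10 ng/ml. For the same samples the source name states an exposure of 2 h and the title one of 4 h, so the time point is not settled. Wild-type cells are not used here, and nothing below measures an effect of the knockout.

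LPS binding to Toll-like receptor 4 activates the MAP kinases ERK, JNK and p38, and these drive the transcription and stabilise the mRNA of many inflammatory genes. The phosphatases end that activity. Many MAP kinase phosphatase genes are themselves switched on by MAP kinase signalling, so the family forms a negative feedback loop. Its members differ in where they sit and what they prefer: Dusp1, Dusp2, Dusp4 and Dusp5 encode nuclear enzymes of the inducible group, Dusp6 and Dusp7 encode cytoplasmic enzymes that act on ERK, and Dusp8, Dusp10 and Dusp16 encode enzymes that act on JNK and p38. Dusp3 encodes VHR, a small atypical enzyme that lacks the domain by which the others dock onto a kinase. In macrophages, Dusp1 is known for limiting cytokine production after LPS.

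Promoter sequence is shown for 5 members: Dusp1 and Dusp16, which rose after LPS, Dusp8, which was read only after LPS, Dusp5, which did not pass the test, and Dusp7, which fell. RefSeq gave a promoter for 9 of the 10 members, all but Dusp4. Each line holds the 250 bases before the annotated start site, 5′ to 3′ on the gene's strand, in build GRCm38.p6. Those coordinates are RefSeq's and were not taken from the count files. Capitals mark the CRE core TGACG (alone or within the full cyclic AMP response element TGACGTCA), the CArG box bound by serum response factor, and the core GAGGAA of the PU-box, on either strand.
Dusp1, chr17:26508473-26508722, minus strand: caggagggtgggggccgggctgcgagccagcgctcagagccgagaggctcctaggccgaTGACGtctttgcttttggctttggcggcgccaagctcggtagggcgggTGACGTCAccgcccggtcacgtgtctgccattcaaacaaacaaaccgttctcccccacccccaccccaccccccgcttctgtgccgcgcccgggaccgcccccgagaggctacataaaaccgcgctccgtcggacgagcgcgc
Dusp16, chr6:134792629-134792878, minus strand: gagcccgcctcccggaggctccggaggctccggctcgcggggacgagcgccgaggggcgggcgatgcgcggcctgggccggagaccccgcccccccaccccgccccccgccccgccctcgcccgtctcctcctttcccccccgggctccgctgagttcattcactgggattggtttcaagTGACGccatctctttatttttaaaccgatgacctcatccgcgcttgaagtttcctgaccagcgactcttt
Dusp8, chr7:142095285-142095534, minus strand: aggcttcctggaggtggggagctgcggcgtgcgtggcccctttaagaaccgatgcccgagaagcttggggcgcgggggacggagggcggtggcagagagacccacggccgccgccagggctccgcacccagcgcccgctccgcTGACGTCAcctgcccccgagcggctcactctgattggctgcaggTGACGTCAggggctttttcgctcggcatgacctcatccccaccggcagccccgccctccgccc
Dusp5, chr19:53528895-53529144, plus strand: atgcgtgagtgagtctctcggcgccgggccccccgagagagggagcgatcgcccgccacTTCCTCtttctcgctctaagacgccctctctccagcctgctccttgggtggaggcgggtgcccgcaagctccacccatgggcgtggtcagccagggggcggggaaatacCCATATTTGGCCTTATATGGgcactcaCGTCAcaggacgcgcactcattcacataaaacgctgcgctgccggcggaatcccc
Dusp7, chr9:106368382-106368631, plus strand: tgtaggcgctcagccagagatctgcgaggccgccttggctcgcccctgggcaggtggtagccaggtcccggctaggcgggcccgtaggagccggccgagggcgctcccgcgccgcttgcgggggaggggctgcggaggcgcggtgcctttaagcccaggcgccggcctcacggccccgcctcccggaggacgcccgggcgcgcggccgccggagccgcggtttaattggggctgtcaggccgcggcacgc
The full element TGACGTCA was present once before Dusp1, at -143 to -136 from the start site, and at 2 places before Dusp8, at -107 to -100 and at -63 to -56. It occurred in 2 of 9 member promoters and in 1.5% of 32851 RefSeq promoter windows of the same length. The core TGACG, which overlaps the full element, occurred in 4 of 9 members (Dusp1, Dusp5, Dusp8 and Dusp16) and in 17.8% of windows. All 4 are shown above, while Dusp2, Dusp3, Dusp6 and Dusp10, which lacked the core, are not. Of these, Dusp3 and Dusp6 were also called higher after LPS. A link between the core and the response was not tested. Neighbouring CArG boxes stood before Dusp5 alone of the 9, at -82 to -73 and at -72 to -63, and 1.5% of windows held a CArG box. The PU-box core, the kind of site PU.1 recognises, was found before Dusp5 and Dusp6 and in 23.3% of windows. The GC box GGGCGG, which is not capitalised, was found in 7 of 9 members and in 32.7% of windows, and in these windows Dusp6 and Dusp7 lacked it. An AP-1 site TGANTCA, a kappaB site, an interferon-stimulated response element and a TATAAA box were found in 0 of the 9, against 6.7%, 7.3%, 3.0% and 12.4% of windows. The member windows held 56.4% (Dusp6) to 77.2% (Dusp7) GC. The 32851 windows were not matched to them for GC, so the shares do not test enrichment. Such matches describe letters and do not show binding, and sites outside these windows were not searched.

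The libraries held 4502105 and 4115011 gene reads (untreated) and 3256197 and 3749159 (LPS). Spi1, which encodes PU.1, was read 844 and 743 times untreated and 745 and 958 times after LPS. Scaled, this is 161 and 164 CPM untreated and 258 and 291 CPM after LPS. It was called higher (log2 fold change 0.75, edgeR adjusted p = 8.8e-10). These reads show transcript and say nothing on the edit. All 10 microglia and macrophage markers were counted in every library, with a summed level of 2795 to 2808 CPM untreated and 3130 to 3267 CPM after LPS. Neuron markers were at 0 in all 4 libraries, and astrocyte, oligodendrocyte, fibroblast and lymphocyte markers summed to at most 1.39 CPM. The 5 endothelial markers summed to 22.8 to 23.2 CPM untreated and 34 to 49.9 CPM after LPS, with Pecam1 and Cldn5 at 0, and their part in the results was not tested. Separate cultures are not named in the labels, so p-values measure the spread between these libraries, which may be technical.

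After LPS, 5 of the 8 tested phosphatase genes rose, 1 fell and 2 did not pass the test at an edgeR adjusted p below 0.05. In the same comparison 51.9% of all tested genes changed, 26.6% higher and 25.3% lower, so a change as such was common. Dusp1, Dusp16 and Dusp4 rose 8.15-fold, 5.03-fold and 4.30-fold, Dusp6 and Dusp3 rose by less than that (1.39-fold and 1.31-fold), and Dusp7 fell to 37.9% of its untreated level. The median log2 fold change of the 8 was 0.43, against 0.00 over all tested genes. In RNA from whole cultures, fewer cells expressing a gene and less RNA per cell cannot be told apart. With libraries scaled by size alone, which moved the median of all tested genes to -0.36, 3 members were higher (Dusp1, Dusp4, Dusp16) and 2 lower (Dusp2, Dusp7), while 13.8% of tested genes were higher and 47.8% lower. With DESeq2, Dusp1, Dusp3, Dusp4 and Dusp16 were higher and Dusp7 lower, against 15.9% and 12.7% of the genes it tested. It also called Dusp8, which had reads in the LPS libraries only and could differ in no other direction. Levels below are CPM, the usual read counts relative to library size, here scaled by the TMM method, unless a level per kilobase is named.

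**Figure D1:**
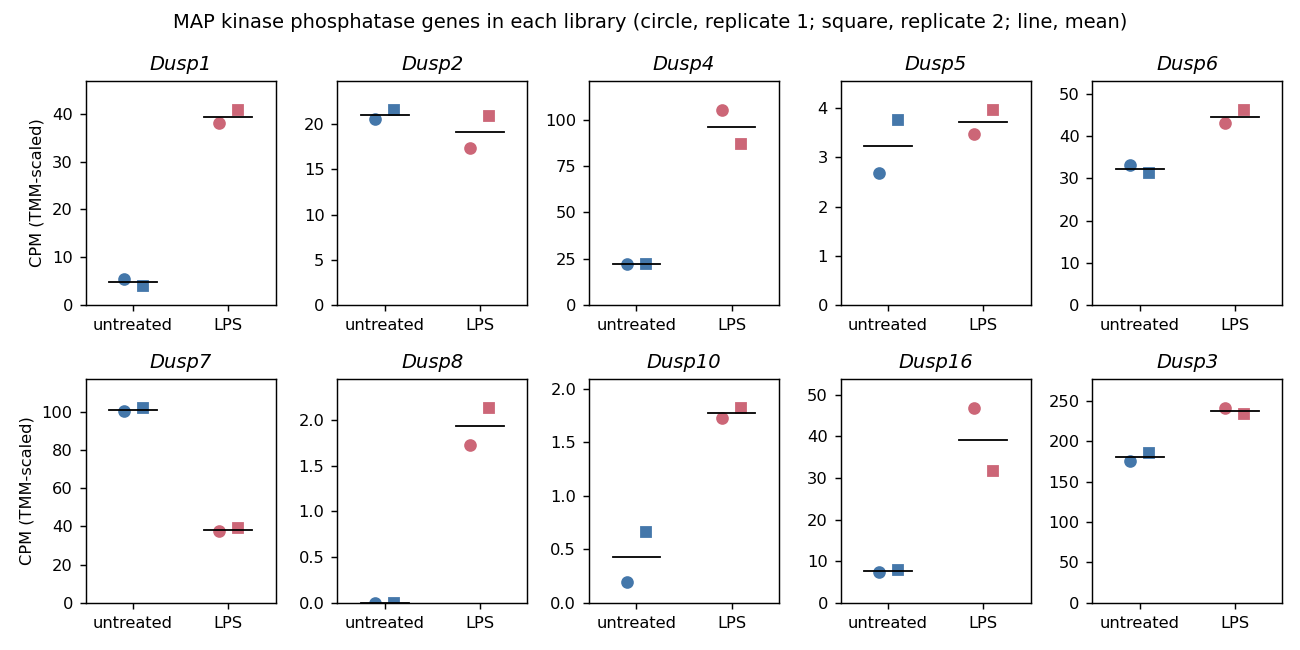
Level of each phosphatase gene in the 4 libraries (vertical axis CPM from 0, scale set for each gene; circles are replicate 1, squares replicate 2, lines the mean of 2 libraries). The LPS libraries of Dusp1, Dusp4 and Dusp16 stand well above the untreated ones, those of Dusp7 stand below, and those of Dusp2 and Dusp5 overlap the untreated ones.

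Among the inducible nuclear enzymes, Dusp1 and Dusp4 rose and Dusp2 and Dusp5 did not pass the test. Dusp1, which encodes MKP-1, a phosphatase of p38 and JNK as well as ERK, was at 5.55 and 3.98 CPM untreated and at 38.1 and 40.7 CPM after LPS. Both LPS values lay far above both untreated ones, and the change was a log2 fold change of 3.03 (SE 0.21, 95% interval 2.6 to 3.45, edgeR adjusted p = 3.7e-17). It ranked 205 among 9992 tested genes by log2 fold change. Its untreated level rested on 29 and 18 reads. Dusp4, which encodes MKP-2, a nuclear enzyme close to MKP-1, was at 22.4 and 22.1 CPM untreated and at 105 and 86.8 CPM after LPS. The untreated libraries were nearly equal and the LPS pair differed from each other by less than from the untreated, with a log2 fold change of 2.10 (SE 0.13, 95% interval 1.83 to 2.37, edgeR adjusted p = 1.1e-18).

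Dusp2, which encodes PAC-1, a nuclear phosphatase of blood and immune cells, was at 20.5 and 21.5 CPM untreated and at 17.3 and 20.9 CPM after LPS. The groups overlapped, and the log2 fold change was -0.12 (SE 0.18, 95% interval -0.49 to 0.25, edgeR adjusted p = 0.60). That interval leaves room for a fall to 71.0% or a rise to 119% of the untreated level and not for a response of the size seen for Dusp1. With scaling by library size alone Dusp2 passed the test as lower (log2 fold change -0.48, edgeR adjusted p = 0.024), and with GC-corrected offsets its sign turned (0.19). Dusp5, which encodes a nuclear phosphatase specific for ERK, had 14 and 17 reads untreated and 10 and 13 after LPS. This is 2.68 and 3.76 CPM against 3.47 and 3.95 CPM, groups that overlapped. Its log2 fold change of 0.22 had a 95% interval of -0.61 to 1.05, so at this depth neither a fall to 65.6% nor a 2.08-fold rise could be told from no change. Its sign turned with scaling by library size alone (-0.13) and without untreated replicate 1 (-0.02).

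The pair of cytoplasmic ERK phosphatase genes moved in opposite directions. Dusp7, which encodes MKP-X, was at 100.2 and 102 CPM untreated and at 37.4 and 39.2 CPM after LPS. Replicates agreed to within 2.19 CPM in either group, and the fall was a log2 fold change of -1.40 (SE 0.12, 95% interval -1.65 to -1.15, edgeR adjusted p = 9.6e-14). It was the only tested member lower after LPS, at rank 348 from the lowest of 9992 tested genes. Dusp6, which encodes MKP-3, was at 33.1 and 31.2 CPM untreated and at 43.0 and 46.1 CPM after LPS. The groups did not overlap and the log2 fold change was 0.47 (SE 0.14, 95% interval 0.19 to 0.75, edgeR adjusted p = 0.0040). The Dusp6 call was lost when libraries were compared by size alone (log2 fold change 0.11, edgeR adjusted p = 0.53) and also with DESeq2 (adjusted p = 0.12) and without untreated replicate 2 (edgeR adjusted p = 0.070). The intervals of Dusp6 and Dusp7 lie on opposite sides of 0, but Dusp6's side rests on the scaling.

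Of the phosphatase genes acting on JNK and p38, Dusp16 rose and Dusp8 and Dusp10 were barely read. Dusp16, which encodes MKP-7, a phosphatase that prefers JNK, was at 7.46 and 7.96 CPM untreated and at 46.8 and 31.6 CPM after LPS. The LPS libraries differed from each other by more than for any other tested member in proportion to their mean, and both were above the untreated pair. The log2 fold change was 2.33 (SE 0.20, 95% interval 1.92 to 2.74, edgeR adjusted p = 3.1e-13), or 2.6 without LPS replicate 2 and 2.03 without LPS replicate 1. Dusp10, which encodes MKP-5, had 1 and 3 reads untreated and 5 and 6 after LPS. The scaled ratio of its summed reads was 4.34 (95% exact interval 1.29 to 18.7, counting error only). Dusp8 had 0 reads in both untreated libraries and 5 and 7 after LPS. Set against a floor of 3 reads over the untreated group this is 6.31-fold, with no allowance for counting error in the LPS reads. Weaker filters let Dusp8 in through its LPS reads alone, so no p is given for it. Without a filter beyond 1 read, which Dusp10 met in both groups, Dusp10 did not pass the test (edgeR adjusted p = 0.071, DESeq2 adjusted p = 0.29). A filter of 1 CPM in 2 libraries let Dusp10 in through its LPS reads alone. It was called higher there, and no p is given for that call.

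The atypical phosphatase gene Dusp3 was the most abundant member in all 4 libraries. It was at 176 and 185 CPM untreated and at 241 and 234 CPM after LPS. The groups did not overlap, and the rise was a log2 fold change of 0.39 (SE 0.09, 95% interval 0.21 to 0.57, edgeR adjusted p = 0.00022). That difference came to 0.04 when size alone scaled the libraries (edgeR adjusted p = 0.77). For the low rises of Dusp3 and Dusp6 the call thus depends on how libraries are scaled, and for Dusp6 also on the method and on untreated replicate 2. For Dusp1, Dusp4, Dusp7 and Dusp16 the call held under all 14 alternatives, with log2 fold changes of 2.67 to 3.29, 1.75 to 2.26, -1.76 to -1.16 and 1.97 to 2.6.

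**Figure D2:**
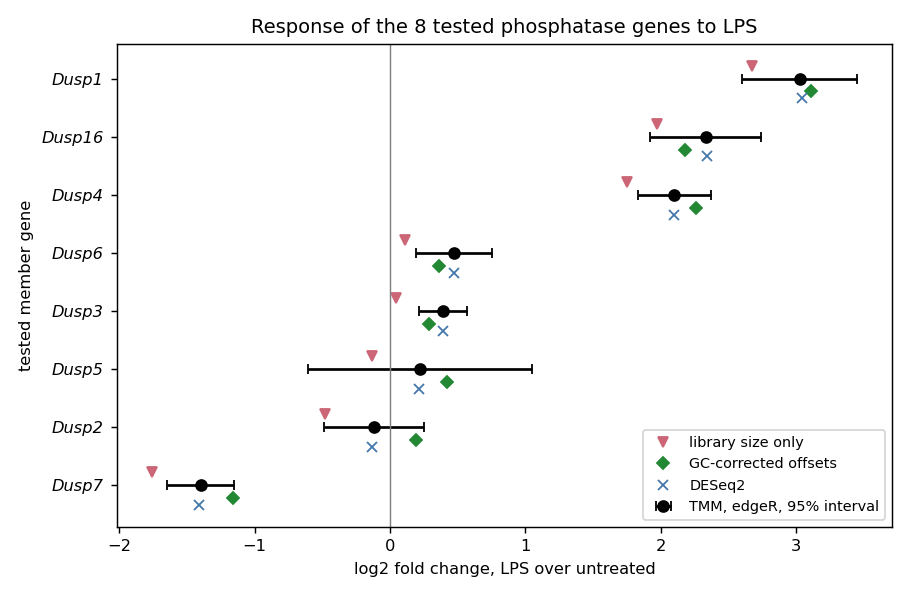
Log2 fold change of the 8 tested members (horizontal axis, LPS over untreated) by edgeR with TMM scaling (black, with 95% interval), with library size alone (triangles), GC-corrected offsets (diamonds) and DESeq2 (crosses). Dusp1, Dusp16 and Dusp4 lie at or above 1.75 and Dusp7 at or below -1.16 under each, while Dusp6 and Dusp3 come near 0 with library size alone.

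Ordered by log2 fold change, the tested members ran Dusp1, Dusp16, Dusp4, Dusp6, Dusp3, Dusp5, Dusp2 and Dusp7. The interval of Dusp1 (from 2.6) did not overlap that of Dusp4 (to 2.37) but did overlap that of Dusp16 (to 2.74), and those of Dusp16 and Dusp4 overlapped each other. The intervals of Dusp6, Dusp3, Dusp5 and Dusp2 overlapped, which does not show that these genes responded alike. Among the 8 tested members the groups of libraries did not overlap for 6, with 5 higher and 1 lower after LPS. Over all tested genes 75.1% had groups that did not overlap, 37.5% higher and 37.6% lower, so the total is near the background, and the split by direction in genes chosen with results known was not tested. Dusp8 and Dusp10, which were not tested, had LPS values above the untreated ones. In 2 against 2 libraries an exact two-sided permutation test of a single gene cannot give a p below 0.333, which is why only the fit across all genes is used.

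To compare levels between genes, CPM was divided by exon length in kilobases. Untreated cells held most phosphatase transcript as Dusp3, at 38.5 ± 1.35 CPM per kilobase (SD, n = 2), and Dusp7, at 30.2 ± 0.460. These were followed by Dusp2 at 10.5 ± 0.349, Dusp6 at 10.3 ± 0.429 and Dusp4 at 8.12 ± 0.0670, and Dusp2 and Dusp6 overlapped. Dusp1 at 1.44 ± 0.334 and Dusp5 at 1.30 ± 0.309 likewise overlapped, with Dusp16 at 0.989 ± 0.0456 and Dusp10 at 0.140 ± 0.110 CPM per kilobase below them. After LPS the order changed. Dusp3 at 50.6 ± 1.02 was now followed by Dusp4 at 35.1 ± 4.78, and then by Dusp6 at 14.2 ± 0.716, Dusp1 at 11.9 ± 0.547, Dusp7 at 11.4 ± 0.366 and Dusp2 at 9.55 ± 1.28 CPM per kilobase. Of these, Dusp1 and Dusp7 overlapped. Dusp16 at 5.02 ± 1.38, Dusp5 at 1.5 ± 0.138, Dusp10 at 0.584 ± 0.0206 and Dusp8 at 0.396 ± 0.0570 followed. The order of close neighbours depends on the exon length used. With each gene's longest transcript in place of all its exons, untreated Dusp2 held 11.8% ± 0.200 (SD, n = 2) of the members' summed level per kilobase and stood apart from Dusp6 at 10.5% ± 0.611, and Dusp16 at 1.38% ± 0.0408 overlapped Dusp5 at 1.18% ± 0.263. After LPS, with that length, Dusp1 at 11.0% ± 0.800 overlapped Dusp6 at 10.3% ± 0.794 and stood apart from Dusp7 at 7.68% ± 0.453, while Dusp7 overlapped Dusp2 at 7.63% ± 1.23. Under both lengths Dusp3 came first in each group, with Dusp7 next untreated and Dusp4 next after LPS.

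Summed over the 10 members the level per kilobase was 100.2 and 103 untreated and 143 and 137 after LPS, and its make-up shifted. The size of the sum depends on how libraries are scaled, and it was computed with TMM scaling only. The share of Dusp7 went from 29.8% and 29.7% of that sum to 7.79% and 8.49%. The share of Dusp4 went from 8.15% and 7.86% to 26.9% and 23.1%, and that of Dusp1 from 1.67% and 1.17% to 8.04% and 8.94%. Dusp2 went from 10.2% and 10.4% to 6.04% and 7.61%, while Dusp6 held 10.5% and 9.69% untreated and 9.58% and 10.7% after LPS. By role, the cytoplasmic ERK phosphatases held 39.9% ± 0.675 (SD, n = 2) untreated and 18.3% ± 1.30 after LPS, and the inducible nuclear enzymes held 21.0% ± 0.118 and 41.3% ± 0.814. The JNK and p38 enzymes held 1.11% ± 0.134 and 4.27% ± 0.804, while Dusp3 alone held 38% ± 0.660 and 36.1% ± 0.318. Shares do not depend on a factor that scales a whole library, since it cancels within that library. GC-corrected offsets differ from gene to gene and would not cancel, and shares were not computed with them. Shares also depend on the lengths used. With the longest transcript in place of all exons the nuclear group held 22.3% ± 0.188 and 42.1% ± 0.329. These are shares of transcript reads and not of protein.

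**Figure D3:**
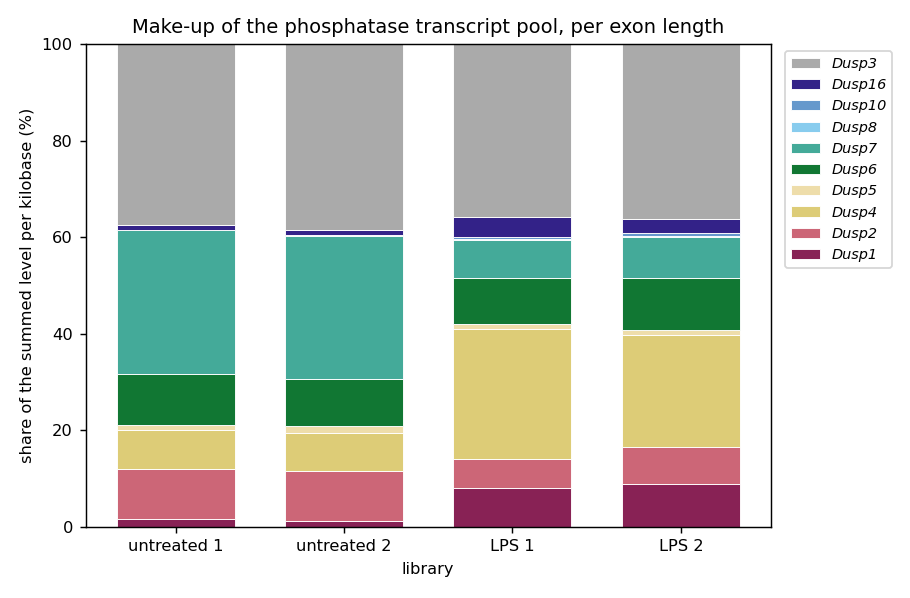
Share of each member (vertical axis, percent) in the summed CPM per kilobase of exon of the 10 phosphatase genes, 1 bar for each library. From untreated to LPS the Dusp7 band shrinks from 29.8% and 29.7% to 7.79% and 8.49%, and the Dusp4 band grows from 8.15% and 7.86% to 26.9% and 23.1%.

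Few reads of the members came from the opposite strand, where they summed to 4 and 5 untreated and 1 and 7 after LPS over all 10 genes, with at most 4 for a gene in a library. In GENCODE vM21, Dusp2, Dusp4, Dusp6 and Dusp7 overlap no other gene. Exon bases are shared with a gene on the opposite strand by Dusp3 (604 bases, Gm20659), Dusp5 (547 bases, AC137853.2), Dusp8 (66 bases, Gm32786) and Dusp1 (11 bases, Ergic1), of which Ergic1 alone has a row in the count files, and Dusp10 and Dusp16 share none.

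Of 17 other dual-specificity phosphatases, 9 could be tested. Of these, 2 rose, 1 fell and 6 did not pass, with a median log2 fold change of -0.02. With library size alone 1 rose and 4 fell, and with DESeq2 1 rose and 0 fell. The shares over all tested genes were 26.6% higher and 25.3% lower. They were 13.8% and 47.8% with library size alone, and 15.9% and 12.7% with DESeq2. Whether this list or those below depart from these shares was not tested. Dusp11, whose product acts on the phosphates of RNA ends, rose from 102 ± 0.369 to 150 ± 15.4 CPM (SD, n = 2; 1.46-fold, edgeR adjusted p = 8.3e-06), a call lost when size alone scaled the libraries (edgeR adjusted p = 0.14). The other riser, Dusp23, went from 8 and 2 reads to 9 and 11; it met the filter on low counts through its LPS libraries alone and was not called with DESeq2 (adjusted p = 0.22). Dusp18 fell from 16.8 ± 1.18 to 9.06 ± 0.0689 CPM (-0.89 on the log2 scale), and with DESeq2 its adjusted p was 0.076. Dusp9, the remaining cytoplasmic ERK phosphatase, had 0 reads in all 4 libraries.

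Of 6 tested phosphatases of MAP kinases outside the DUSP family, 3 rose and 2 fell (median log2 fold change 0.23), against 0 higher and 2 lower with scaling by library size alone. Over all tested genes 26.6% rose and 25.3% fell, or 13.8% and 47.8% with library size alone. Ptpn7, the haematopoietic tyrosine phosphatase that binds ERK and p38, rose 1.5-fold from 132 ± 1.55 to 198 ± 1.82 CPM. The catalytic subunit genes of protein phosphatase PP2A, Ppp2ca and Ppp2cb, rose 1.31-fold and 1.24-fold. Ppp2cb was not called with DESeq2 (adjusted p = 0.31), and Ppp2ca was not called with GC-corrected offsets (edgeR adjusted p = 0.31). Ppm1d, which encodes the p53-induced phosphatase WIP1, fell from 41.6 ± 1.22 to 19.7 ± 6.85 CPM (-1.05 on the log2 scale), and Ppm1a fell by 0.37 on the log2 scale, the latter with a DESeq2 adjusted p of 0.19.

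Of 8 tested MAP kinase genes, 3 rose and 3 fell, with a median log2 fold change of 0.23, or 0 and 4 with library size alone. Over all tested genes 26.6% rose and 25.3% fell, or 13.8% and 47.8% with library size alone. Mapk3 (ERK1) went down from 76.6 ± 3.30 to 47.1 ± 0.867 CPM (log2 fold change -0.70), as did Mapk14 (p38 alpha) from 116 ± 2.14 to 79.4 ± 5.36 CPM (-0.55) and Mapk7 (ERK5) from 27.3 ± 1.70 to 11.7 ± 2.01 CPM (-1.23). Mapk8 and Mapk9, which encode JNK1 and JNK2, rose 1.45-fold and 1.31-fold, and Mapk6 rose 1.28-fold. None of these 3 rises was called with scaling by library size alone or with GC-corrected offsets (0 higher in each), while the 3 falls were called under both. With DESeq2 the 3 falls and the rise of Mapk6 were called, and Mapk8 and Mapk9 were not (DESeq2 adjusted p = 0.072 and 0.12).

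Upstream, 2 of 7 MAP2 kinase genes rose and 1 fell, with a median log2 fold change of -0.16, against 1 and 4 (median -0.52) with library size alone. Map2k6, not called with TMM scaling, counts in both medians but met the filter on low counts through its untreated libraries alone. The ERK kinases parted: Map2k1 rose from 95.5 ± 3.13 to 184 ± 24.5 CPM (1.93-fold) and Map2k2 fell from 111 ± 3.29 to 67.1 ± 9.02 CPM (log2 fold change -0.73). Map2k4, a JNK kinase, rose 1.22-fold, a call lost with library size alone (edgeR adjusted p = 0.65). It was also lost with GC-corrected offsets (edgeR adjusted p = 0.93) and with DESeq2 (adjusted p = 0.25). Of 12 MAP3 kinase genes, 1 rose and 3 fell (median 0.00), or 1 and 6 with scaling by library size alone. For comparison with both lists, 26.6% of all tested genes rose and 25.3% fell, or 13.8% and 47.8% with library size alone. The riser was Map3k8, which encodes TPL2, the kinase that links Toll-like receptors to ERK, from 7.01 ± 0.719 to 43.8 ± 1.8 CPM (6.24-fold). Map3k1, Map3k3 and Map3k4 fell, with log2 fold changes of -0.85, -0.48 and -0.44, and Map3k4 was not called with DESeq2 (adjusted p = 0.13).

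Downstream, 3 of 10 tested MAPK-activated kinase genes rose and 4 fell (median -0.25), or 3 and 5 with library size alone. Over all tested genes 26.6% rose and 25.3% fell, or 13.8% and 47.8% with library size alone. Mapkapk2, which encodes the p38 effector kinase MK2, rose from 584 ± 6.53 to 1606 ± 27.7 CPM (2.75-fold), Rps6ka3 1.91-fold and Rps6ka2 2.42-fold. Mknk2 fell from 186 ± 13.1 to 97.8 ± 9.86 CPM (-0.92 on the log2 scale), Mapkapk3 by 0.53 and Rps6ka1 by 0.67 on the log2 scale. Of 6 tested scaffold genes, Spag9 rose 1.48-fold and Arrb1 fell (-0.79), with a list median of -0.19, against 0 higher and 3 lower with library size alone. Ksr1, not called with TMM scaling, counts in that median but met the filter on low counts through its untreated libraries alone. The Spag9 call was lost with library size alone (edgeR adjusted p = 0.23), with GC-corrected offsets (edgeR adjusted p = 0.12) and with DESeq2 (adjusted p = 0.062).

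Of 8 Sprouty, SPRED and other feedback inhibitor genes, which like Dusp6 restrain signalling to ERK, 5 were tested: Spry2, Spred1, Spred2, Errfi1 and Pebp1. Of these 2 rose and 1 fell (median -0.23), or 1 and 2 with library size alone and 1 and 0 with DESeq2. Over all tested genes 26.6% rose and 25.3% fell, or 13.8% and 47.8% with library size alone and 15.9% and 12.7% with DESeq2. Spred1 rose 1.70-fold from 91.4 ± 6.72 to 156 ± 7.47 CPM. Spry2 rose 1.62-fold from 9.95 to 16 CPM, but was not called with DESeq2 (adjusted p = 0.20), and Pebp1 fell by 0.26 on the log2 scale, without a call under DESeq2 (0.14). Spry1 and Spry4 had 0 reads in all 4 libraries. Of 9 tested ERK-responsive genes, 2 rose and 2 fell, or 2 and 3 with library size alone, but for 4 of the 9 (Egr3, Etv4, Fos and Myc) only 1 group had both libraries past the filter on low counts. Ier3 rose from 6.10 ± 1.12 to 96.9 ± 1.73 CPM (15.7-fold) and Etv5 fell from 49.6 ± 1.59 to 28.0 ± 2.61 CPM (log2 fold change -0.83). The other 2 calls were of such genes: Myc had 1 and 4 reads untreated and 18 and 14 after LPS, and Egr3 had 36 and 26 untreated and 1 and 2 after LPS. Of 5 JNK-linked AP-1 transcription factor genes, 4 rose and Atf2 did not pass (median 0.76), or 3 rose and 1 fell with library size alone. The share higher over all tested genes was 26.6%, or 13.8% with library size alone, and a departure of this list from it was not tested. Atf3 rose from 58.8 ± 3.10 to 336 ± 9.75 CPM (5.71-fold), Junb 2.46-fold and Jund 1.70-fold.

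**Figure D4:**
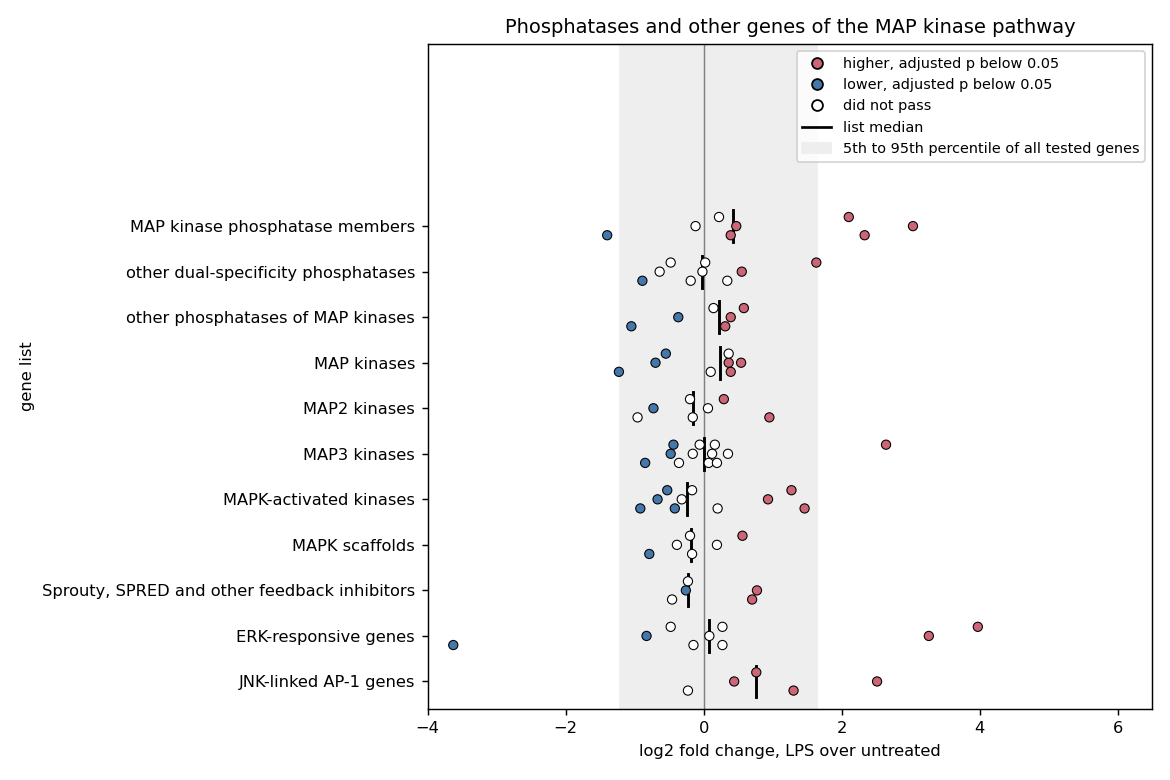
Log2 fold change (horizontal axis, LPS over untreated) of the tested genes in each list (rows): red, higher; blue, lower; white, did not pass; black bars, list medians; grey band, the 5th to 95th percentile of all tested genes (-1.22 to 1.64). Dusp1, Dusp16 and Dusp4 lie above the band and Dusp7 below it, as Map3k8, Ier3 and Atf3 lie above it and Mapk7 below it; Myc above it and Egr3 below it met the filter on low counts through 1 group alone.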

How the data were processed

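The authors deposited raw read counts for each gene symbol and library, as STAR writes them. Per the submitters' processing notes, CASAVA 1.8.2, Trimmomatic 0.33, STAR 2.5.1, DESeq2 and build hg19 were used, although the symbols are mouse; an annotation is not named. Per the labels' protocols, libraries kept strand, and the reverse-strand column (78.7 to 95.3 times the forward one) was used without its 4 summary lines. Reads on no annotated exon of that strand, which can include reads in introns, made up 53% and 51.8% of uniquely placed reads untreated. After LPS they made up 59.1% and 57.4%.

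Counts were filtered with filterByExpr, scaled by TMM (factors 1.16 and 1.10 untreated, 0.888 and 0.880 LPS) and tested in R 4.3.3 with edgeR 4.0.16 (robust quasi-likelihood test of treatment, two-sided), adjusted by Benjamini-Hochberg over 9992 genes at a threshold of 0.05. The code was tested on simulated data. The SE, the log2 fold change over the square root of F, is approximate, as are the 95% intervals from it. Levels per kilobase use all exons of a symbol in GENCODE vM21, and the length alternative was chosen after seeing the data. Other alternatives were RLE, upper quartile and library size scaling, DESeq2 1.42.0, other filters, unstranded counts, a replicate block, GC-corrected offsets (GC known for 96.6% of tested genes), removal of 5 abundant entries and leaving out each library. All members are named, and from each pathway list up to 3 risers and 3 fallers by smallest p; other genes were named after their values were seen. Members and lists were chosen with earlier results of these data known. The list symbol Emr1 matched as Adgre1. A gene of the MAP3 kinase list is not reported here. Chi-square per degree of freedom within a group was 4.63 (untreated) and 2.91 (LPS), above sampling noise, so no pair looked like 1 library deposited as a pair; this does not show separate cultures.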

Additional observations from a re-analysis of the deposited data

How the results depend on the processing

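Of 112 combinations of a tested member and an alternative, 103 kept the direction and the side of the threshold, 4 lost the call, 1 gained it and 4 turned sign. The sign turned for genes that had not passed: Dusp2 (0.19 with GC-corrected offsets, and -0.27 to 0.0015 when 1 library was left out, the latter without LPS replicate 1) and Dusp5 (-0.13 with library size alone, and -0.02 to 0.46 when 1 library was left out, the former without untreated replicate 1). With library size alone 3 members were higher and 2 lower, against 5 and 1. With DESeq2 3162 genes changed in place of 5186, and the 5 higher members were Dusp1, Dusp3, Dusp4, Dusp16 and Dusp8, the last through its LPS reads alone. Leaving out 1 library gave 4 to 5 higher and 1 lower member and 4063 to 4917 changed genes; the lone library of a group is then assumed to vary like the other group. The replicate block gave 5171 changed genes with 5 members higher and 1 lower. Without a filter beyond 1 read 6 members were higher, with Dusp8 added. With 1 CPM in 2 libraries 7 were higher, with Dusp8 and Dusp10 added, each let in through its LPS reads alone. Same-numbered libraries did not deviate together (r = -0.0277 across 9170 genes), so the numbers were not taken as pairs. Another exon length changed the order of close neighbours in level per kilobase, as given above. Dusp8 and Dusp10 entered no fit at the default filter, and Dusp5 at 10 to 17 reads is limited by depth.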
